A study of Ovis aries with 67 samples.

Results

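The genes described are the 100 genes of sheep with the largest excess in perirenal adipose tissue (PER), the fat around the kidney, over subcutaneous adipose tissue (SUB), out of 27054 genes listed. They were chosen from libraries of both depots of the same animal. Of 31 sheep with both, 26 had at least 2000000 gene counts in each library and were used. Levels are CPM, counts scaled to the total in genes of a library, and the paired difference of a sheep is log2(CPM+1) in PER minus that in SUB. A mean of at least 5 CPM in PER was reached by 11373 genes, a mean difference of at least 1 by 220 of them, and the same sign in at least 80% of pairs by 197 of those. The members are the 100 with the largest mean difference.

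The libraries came from 36 adult Texel-cross sheep of 2.5 years that had been born as twins, and each gave a PER library (17 males and 19 females). SUB libraries, from fat above the back muscle, came from 31 of them (14 males and 17 females). In the last 6 weeks of gestation the dams were fed at 100% of the energy and protein requirements (NORM), at 50% of both (LOW), or at 150% of energy and 110% of protein (HIGH). Starting on day 3 and ending at 6 months, lambs were given either a high-carbohydrate-high-fat diet (HCHF) or conventional feeding (CONV), and all animals were then kept on the same low-fat feeding. NORM-CONV had 6 PER and 4 SUB libraries, NORM-HCHF 4 and 4, LOW-CONV 9 and 7, LOW-HCHF 6 and 5, HIGH-CONV 5 and 5, and HIGH-HCHF 6 and 6. The labels do not give the dam, so that twins could not be told from unrelated sheep. RNA was taken from whole tissue, and fewer cells of a type and less RNA per cell cannot be told apart.

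Perirenal fat is an internal depot that, in newborn lambs, is rich in brown adipocytes and turns into white fat as the animal grows, whereas subcutaneous fat lies under the skin. Both depots store triacylglycerol in lipid droplets and release fatty acids from it. Depots are also known to differ in the developmental transcription factors they keep expressing and in the other cell types they contain, such as the mesothelium that covers internal fat.

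The files list genes by Ensembl identifiers without names, and the reference table at hand matched 0 of them. A symbol was known for 34 genes only, which the study had listed for a sex difference in SUB, and 2 of these were members. These were PNPLA3 (ENSOARG00000019246), which encodes adiponutrin, a protein of the lipid droplet, and ND6 (ENSOARG00000000033), a mitochondrially encoded subunit of NADH dehydrogenase. Markers of adipocytes, brown adipocytes, mesothelium, kidney, adrenal gland, immune and muscle cells could therefore not be looked up, and neither the tissue labels nor the cell types behind the members were checked. Of the fixed gene lists, only LPIN1, SPARC, DPT and ITIH5 could be found, and none of them was a member. LPIN1, a phosphatidate phosphatase of triacylglycerol synthesis, had a mean difference of 0.66, and DPT, which encodes a matrix protein, one of -1.26.

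Gene counts ranged from 620406 to 10478705 per library in PER and from 662475 to 13232721 in SUB, and 3 PER and 2 SUB libraries had fewer than 2000000. The share of counted reads that fell in no gene was 63.7 to 97.6% in PER (median 70.5%) and 48.3 to 97.4% in SUB (median 63.8%). The shallow libraries had the highest shares, and they entered the tests of diet and sex but not the choice of members.

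The members were raised in PER by 1.48 on the log2 scale in the median, and by 1.21 to 3.30 over the list. The median of all 11373 genes of at least 5 CPM was 0.10. With TMM-scaled CPM the medians were 1.36 and -0.04. These differences chose the members and are given without a test. The difference was at least 2 in 16 members and at least 1.5 in 49. It was positive in every one of the 26 pairs in 21 members, in all but 1 pair in 25, and in at least 21 pairs in each member. Sheep differed widely, with an SD between sheep of 0.40 to 2.11 (median 0.99) per member, and the SD exceeded the mean in 14 members. At the edge of the list, rank 99 had a difference of 1.22, rank 100 of 1.21, and the next 2 genes, just outside, of 1.2.

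Most members were genes of moderate level. Mean CPM in PER ranged from 5.08 to 12390 (median 25.2), with 23 members under 10 CPM, 43 from 10 to 50, 13 from 50 to 100, 16 from 100 to 1000 and 5 above that. In SUB their mean CPM ranged from 0.0585 to 9276 (median 8.06), and 7 members were under 1 CPM. Together the members took up 2.75% of gene counts in PER and 1.54% in SUB. A single gene made up 45.1% of that sum in PER. No member, and none of the 11373 genes, had its lowest PER library above its highest SUB library.

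**Figure D1:**
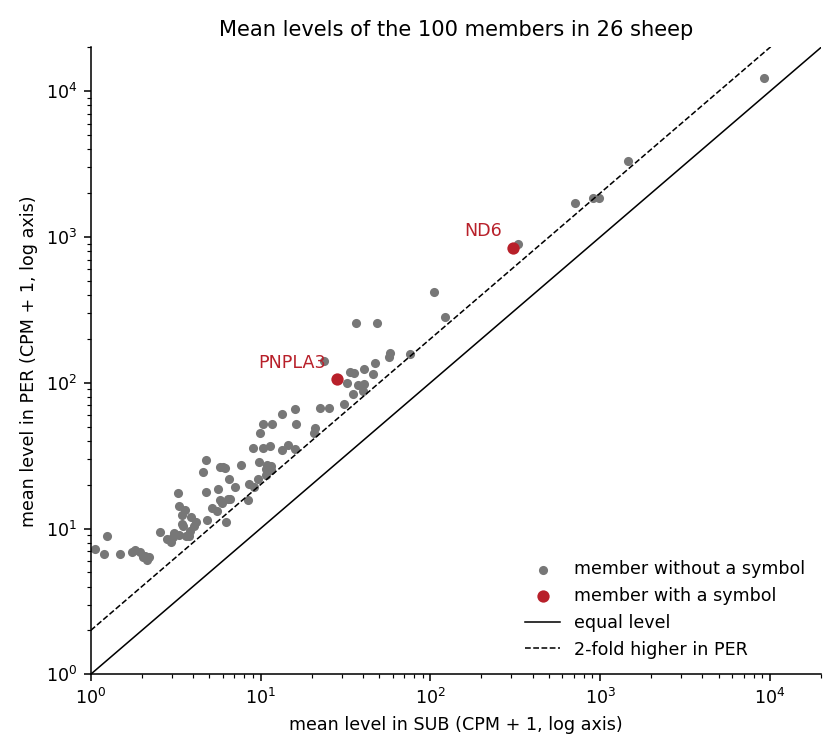
Mean level of each of the 100 members in SUB (x axis) and PER (y axis) over 26 sheep, as CPM + 1 on log axes, with lines for equal levels and for a 2-fold excess in PER. The members lie above the line of equal levels over the whole range, with PNPLA3 at 105 CPM in PER against 27.3 in SUB and ND6 at 841 against 306.

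PNPLA3 ranked 15 among the members. In the 36 PER libraries it ranged from 3.25 to 473 CPM with a median of 58.9, and in the 31 SUB libraries from 0.412 to 96.0 CPM with a median of 24. The ranges of the depots overlapped across sheep, but within the 26 sheep used the PER library was the higher one in all 26, with a mean difference of 2.02 on the log2 scale.

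ND6 ranked 38 and was far less even. It ranged from 72.6 to 77361 CPM in PER (median 325) and from 41.7 to 16690 CPM in SUB (median 107). PER was higher in 22 of the 26 pairs, with a mean difference of 1.64 and an SD of 1.98 between sheep. The 3 highest PER values (77361, 73114 and 27720 CPM) and the 2 highest SUB values (16690 and 4123 CPM) were those of the 5 libraries with fewer than 2000000 counts. ND6 lies on the opposite strand to its mitochondrial neighbours. The strand setting of the counting is not given in the sources used here, so that reads of overlapping transcripts cannot be told apart.

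The 2 members of highest rank have no symbol. ENSOARG00000010057 ranged from 11.6 to 354 CPM in PER (median 137) and from 0.723 to 158 CPM in SUB (median 10.3), and was higher in PER in 25 of the 26 pairs with a mean difference of 3.30. ENSOARG00000005151 ranged from 48.8 to 478 CPM in PER (median 217) and from 14.3 to 266 CPM in SUB (median 30.5), and was higher in PER in all 26 pairs with a mean difference of 2.93.

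Sheep by sheep, the mean difference over the members lay between 0.87 and 2.30 in 25 of the 26 animals, and 90 or more of the 100 members were higher in PER in 23 of them. A NORM-CONV female stood apart with a mean difference of -0.20 and 45 members higher in PER. Its SUB library had 2035120 gene counts, just above the minimum, with 87.5% of reads in no gene. Without this sheep the median difference over the members was 1.56, and all 100 remained at 1 or more.

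The median difference was positive in both sexes and in each diet group. The same pairs chose the members, so that positive values here and in the single sheep are no independent evidence. It was 1.73 in the 13 males (0.87 to 2.23) and 1.70 in the 13 females (-0.20 to 2.30). The median was 1.84 in LOW-CONV (n = 6), 1.85 in LOW-HCHF (n = 4), 1.60 in HIGH-CONV (n = 5), 1.37 in HIGH-HCHF (n = 5), 1.67 in NORM-CONV (n = 4) and 1.32 in NORM-HCHF (n = 2). The ranges of these groups overlapped.

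**Figure D2:**
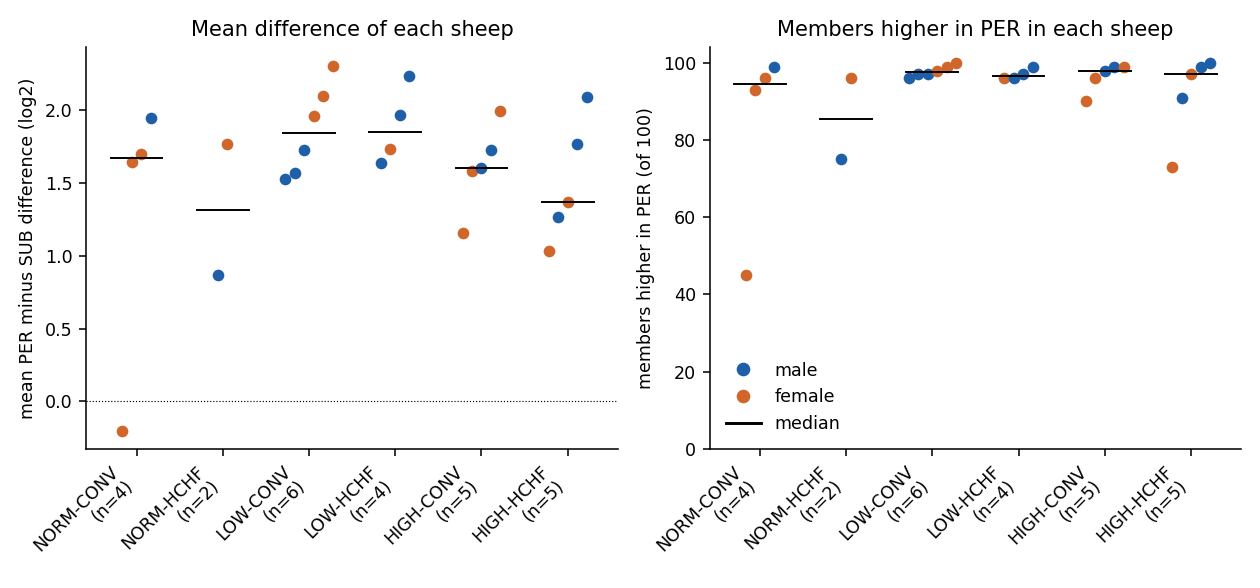
Mean paired difference over the 100 members on the log2 scale (left) and number of members higher in PER (right) in each of 26 sheep, by diet group, with 1 point per sheep coloured by sex and a line at the median of the group. A single NORM-CONV female lies below 0 at -0.20, and the other sheep lie between 0.87 and 2.30.

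The level of the members went with the share of reads in no gene. Across the 33 PER libraries of at least 2000000 counts, the mean log2(CPM+1) of the members had a Pearson correlation of 0.80 and a Spearman correlation of 0.82 with that share, and across the 29 SUB libraries of 0.84 and 0.77. These are descriptions of libraries that share the gene counts as their denominator. Single members correlated with the share at over 0.5 in 26 cases in PER and in 41 in SUB, and at under -0.5 in 2 and 1. Among all genes of at least 5 CPM, 21.7% were over 0.5 and 13.7% under -0.5 in PER, and 22.9% and 24.4% in SUB.

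The share was higher in PER than in SUB in 22 of the 26 pairs, by 8.79 percentage points in the mean. Taken at an equal share by regression over the pairs, the median difference of the members was 1.21 in place of 1.48. That of all 11373 genes was 0.12 in place of 0.10. Of the 100 members, 62 stayed at 1 or more and 2 were at or under 0. For ND6 the difference fell from 1.64 to 0.25, and for PNPLA3 from 2.02 to 1.55. The paired difference grew with the gap in share in 87 members. How many of all genes did so is not given here. The part of the share in the choice of members was not tested further.

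**Figure D3:**
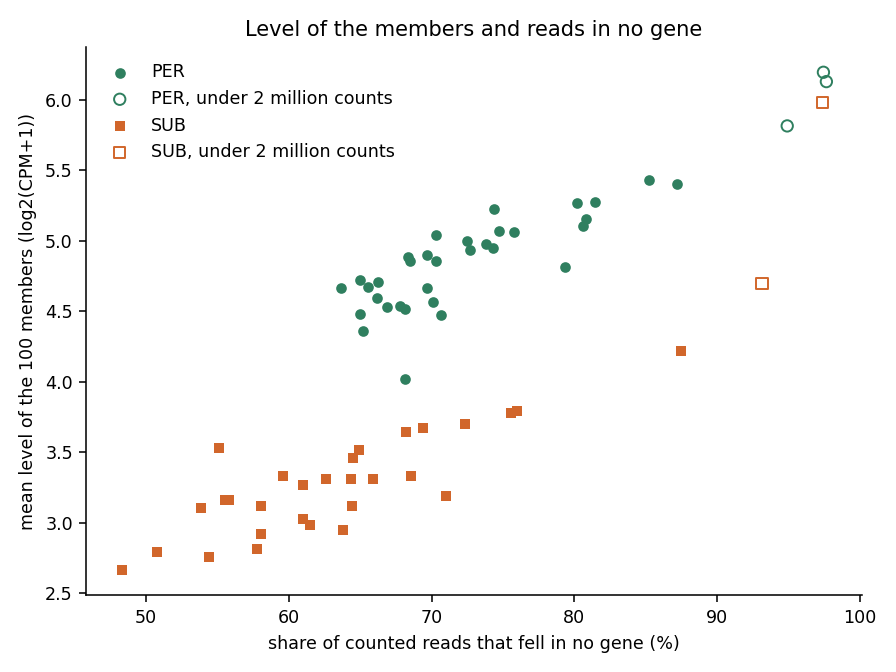
Mean level of the 100 members as log2(CPM+1) (y axis) against the share of counted reads that fell in no gene (x axis) in 36 PER and 31 SUB libraries, 1 point per library, open symbols for libraries under 2000000 counts. Levels rise with the share in both depots. PER libraries lie above SUB libraries of a like share, but the members were chosen for a higher level in PER in most of these libraries.

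The depot difference could be tested only in libraries that the choice had not used, namely 10 PER and 5 SUB libraries of 10 sheep. In these, 95 of the 100 members were higher in PER, with a median log2 fold change of 1.07 (-0.78 to 3.13) against 0.07 for all 22512 genes tested. By edgeR's quasi-likelihood test with Benjamini-Hochberg adjustment, 1 member was called higher in PER, which was the only gene of 22512 so called (0.00444%), while 34 genes were called lower (0.151%). At an unadjusted p under 0.05, 36 members were higher and 0 lower, beside 1.35% of all genes higher. The member called was ENSOARG00000017171, with 2.60 to 24.2 CPM in the 10 PER libraries and 0.745 to 3.56 CPM in the 5 SUB libraries. Its log2 fold change was 2.61 with an SE of 0.51 (adjusted p = 0.033, edgeR), and 1 PER library lay below the highest SUB library. Leaving out 1 library at a time gave 0 to 7 members called, with 7 without the shallow SUB library of a HIGH-HCHF female (0.0536% of all genes higher) and 0 without any of 9 others.

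These unused libraries include all 5 of the shallow ones. In the 7 PER and 3 SUB libraries with at least 2000000 counts, 14 members were called higher, beside 0.291% of all genes, and 57 were higher at an unadjusted p under 0.05, beside 7.12%. Their mean member level was 4.48 to 5.10 on the log2 scale in PER and 3.1 to 3.64 in SUB, without overlap. However, the 3 SUB libraries were all of females, whereas the 7 PER libraries were of both sexes. Reads in no gene made up 53.9 to 68.2% in these SUB libraries and 65.0 to 80.6% in these PER libraries. As the test held depot alone, depot, sex and this share cannot be told apart here. With the sheep as a replicate block, which leaves the 5 sheep with both depots, 0 members were called. At an unadjusted p under 0.05, 20 were higher (0.507% of all genes). By sign alone 91 were higher in PER, and the median log2 fold change over all genes was 0.33. Each of these sheep had 1 shallow library, so that depth and depot cannot be told apart in them. The mean difference over the members was 2.67, 3.03 and 2.17 where the PER library was shallow. It was -1.12 and -0.13 where the SUB library was.

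The question of the diets was whether feeding before birth or early in life left a mark on gene expression in the adult. No member was called for a diet contrast in either depot, and no gene was among the 20880 tested in PER and the 16686 tested in SUB (0%). All 100 members were tested in PER and 98 in SUB, each with edgeR's quasi-likelihood test. DESeq2 with the same averaged contrasts called 1 member for HCHF vs CONV in PER (0.129% of all genes), 19 of 94 tested for LOW vs NORM in SUB (6.49%) and 2 for LOW-HCHF vs NORM-CONV in SUB (0.169%). The counts for edgeR given next are those at an unadjusted p under 0.05.

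In PER, HCHF vs CONV gave 29 members at an unadjusted p under 0.05, 22 higher and 7 lower in HCHF, beside 8.71% of all genes (3.73% higher and 4.99% lower). The median log2 fold change was 0.28 over the members and 0.05 over all genes. The count was 21 without the shallow libraries, beside 11.5% of all genes, and 19 without that of a NORM-HCHF female alone. ENSOARG00000005151, the second in rank, was at 95.6 to 478 CPM in the 16 HCHF sheep (median 286) and at 48.8 to 295 CPM in the 20 CONV sheep (median 203), with overlap and a log2 fold change of 0.70 (adjusted p = 0.35, edgeR). ENSOARG00000007908 went the other way, with 0 to 45 CPM in HCHF (median 1.92) and 0.339 to 241 CPM in CONV (median 14.3). In the model with sex its log2 fold change was -1.83 (adjusted p = 0.30, edgeR). The CPM values are not adjusted for sex, for which this gene was also called, and the 2 diets held the sexes in unlike proportion.

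The same contrast gave 5 members in SUB, all of them higher, beside 4.51% of all genes (3.33% higher). The difference between the effects in the 2 depots was called in 0 members and was at an unadjusted p under 0.05 in 12, beside 6.19% of all genes. PNPLA3 did not pass for HCHF vs CONV in either depot, with a log2 fold change of -0.11 in PER (adjusted p = 0.94, edgeR) and of 0.53 in SUB (adjusted p = 0.77, edgeR).

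Among prenatal diets, the largest count was that of LOW vs NORM in SUB, with 28 members at an unadjusted p under 0.05, all lower in LOW, beside 6.96% of all genes (4.72% lower). The median was -0.57 over the members and 2e-04 over all genes. ENSOARG00000007872 was at 0.337 to 7.90 CPM in the 12 LOW sheep (median 1.69) and at 1.38 to 79.6 CPM in the 8 NORM sheep (median 12.6), with a log2 fold change of -3.64 (adjusted p = 0.66, edgeR). ENSOARG00000009670 was at 0.283 to 3.98 CPM in LOW (median 1.86) and at 0.106 to 25.8 CPM in NORM (median 12.4), with a log2 fold change of -2.22 (adjusted p = 0.66, edgeR).

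In SUB, ND6 was at 41.7 to 1362 CPM in LOW (median 76.9), at 53.3 to 16690 CPM in HIGH (median 107) and at 50.8 to 4123 CPM in NORM (median 146), and its log2 fold change of -3.32 for LOW vs NORM did not pass (adjusted p = 0.66, edgeR). Reads in no gene moved with this contrast, with a median share of 58.1% in LOW-CONV and 61.5% in LOW-HCHF against 66.5% in NORM-CONV and 70.9% in NORM-HCHF. With their share as a covariate, the members at an unadjusted p under 0.05 were 11 in place of 28, beside 2.57% of all genes, and the median over the members was -0.02. The count was 20 without the shallow libraries (5.16% of all genes), 13 without the shallow library of a NORM-HCHF male and 18 without a NORM-CONV female. It was 45 without the only NORM-CONV male (29.2% of all genes), and in this case 14 members were called, beside 1.77% of all genes.

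In PER, LOW vs NORM gave 7 members at an unadjusted p under 0.05 (2.98% of all genes), LOW vs HIGH gave 10 (6.66%) and HIGH vs NORM 12 (3.45%). In SUB, LOW vs HIGH gave 8 (2.49%) and HIGH vs NORM 10 (3.14%). Leaving out 1 library at a time moved these 5 counts to between 1 and 27, and LOW vs HIGH in PER gave 3 without the shallow libraries (4.49% of all genes) and 0 with the share of reads in no gene added to the model (4.63%). For LOW vs NORM the effects in PER and SUB differed in 27 members at an unadjusted p under 0.05, 26 of them more positive in PER, beside 6.83% of all genes (3.03% more positive in PER), and in 0 after adjustment. Among the contrasts of prenatal diet alone, PNPLA3 had its largest difference in LOW vs NORM in PER. It was at 16.1 to 473 CPM in the 15 LOW sheep (median 76.1) and at 3.25 to 175 CPM in the 10 NORM sheep (median 44.1), with a log2 fold change of 1.10 (adjusted p = 1, edgeR).

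For the combined diets, LOW-HCHF vs NORM-CONV gave 25 members in PER at an unadjusted p under 0.05, 20 higher and 5 lower, beside 9.13% of all genes (3.66% higher and 5.47% lower), and 9 in SUB (1.32%). The count in PER was 16 with reads in no gene as a term of the model (4.99% of all genes), 13 without a LOW-HCHF male and 10 without the NORM-CONV female that stood apart. HIGH-HCHF vs NORM-CONV gave 16 in PER (5.88%) and 5 in SUB (1.62%). The interaction of prenatal nutrition and sex gave 18 in PER (21.9%) and 14 in SUB (5.05%), with 0 called in either depot by edgeR. In PER, 10 were called without the shallow library of the NORM-HCHF female, beside 9.85% of all genes, and 11 by DESeq2, beside 12% of all genes, both near the share of all genes. These contrasts share sheep with each other and are not separate evidence.

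Sex was the factor with calls. In PER, 51 of the 100 members passed the adjusted threshold, 22 higher and 29 lower in males, beside 43.4% of all 20880 genes (19.9% higher and 23.5% lower). In SUB, 21 of the 98 members tested did, 5 higher and 16 lower in males (5.10% and 16.3% of them), beside 3.95% of all 16686 genes (1.19% higher and 2.76% lower). In PER the share of members lay near that of all genes in this model. The gap depended on the model, with 55 members beside 31.8% of all genes without the shallow libraries, 37 beside 7.18% with a covariate for reads in no gene, and 17 beside 6.79% with DESeq2 at the reference levels, where the sex effect is that at NORM and CONV. In SUB the count fell to 13 without the only NORM-CONV male with a SUB library, beside 1.46% of all genes. It fell to 11 without the deeper library of the 2 NORM-HCHF males, beside 1.92%. The share of all genes thus fell as well. The count was 36 without the shallow libraries, beside 21.2% of all genes. Changes in PER are relative to a median of -0.13 over all genes, which was -0.28 with the size factors of DESeq2, and the split in PER was then 17 higher and 32 lower (36.4% of all genes called), or 18 and 39 with DESeq2 itself (55.2%).

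The log2 fold changes of the members called in PER were 0.42 to 1.99 for those higher in males (median 0.88) and -3.67 to -0.72 for those lower (median -1.76). In SUB they were 1.13 to 3.00 (median 1.70) and -3.77 to -0.65 (median -1.89). In both depots 11 members were called, which are 21.6% of the PER list and 52.4% of the SUB list. The latter lies near the 51% of all members that were called in PER. The overlap over all genes is not given here. All 11 had the same direction in both, 4 higher and 7 lower in males. The 2 depots come from the same sheep.

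PNPLA3 was higher in males in both depots. In PER it was at 33.9 to 473 CPM in the 17 males (median 167) and at 3.25 to 232 CPM in the 19 females (median 37.9). In SUB it was at 14.6 to 96.0 CPM in the 14 males (median 42.2) and at 0.412 to 41.0 CPM in the 17 females (median 7.0). The sexes overlapped in both depots.

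By edgeR, the log2 fold change of PNPLA3 was 1.99 with an SE of 0.37 in PER (adjusted p = 0.00031) and 2.16 with an SE of 0.37 in SUB (adjusted p = 0.00055). The 2 effects differed by -0.23 with an SE of 0.53 (adjusted p = 1.0, edgeR). The symbol is known here because the study listed the gene for sex in SUB, so that its SUB result is no independent evidence.

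ND6 was called lower in males in PER and was not called in SUB. In PER it was at 72.6 to 820 CPM in males (median 244) and at 106 to 77361 CPM in females (median 1042), with a log2 fold change of -2.89 and an SE of 0.65 (adjusted p = 0.0014, edgeR). In SUB it was at 41.7 to 4123 CPM in males (median 94.4) and at 41.7 to 16690 CPM in females (median 131.8), with a log2 fold change of -0.13 (adjusted p = 0.94, edgeR). With DESeq2 at the reference levels the direction in SUB turned, to 6.26 (adjusted p = 0.020, DESeq2), for the sex effect at NORM and CONV, where SUB has 1 male. The difference between the 2 effects did not pass (-2.88, adjusted p = 0.56, edgeR). The 3 shallow PER libraries were all of females. Without them the change in PER was -1.47 and still called, and with the share of such reads as a covariate it was -0.27 and was not.

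**Figure D4:**
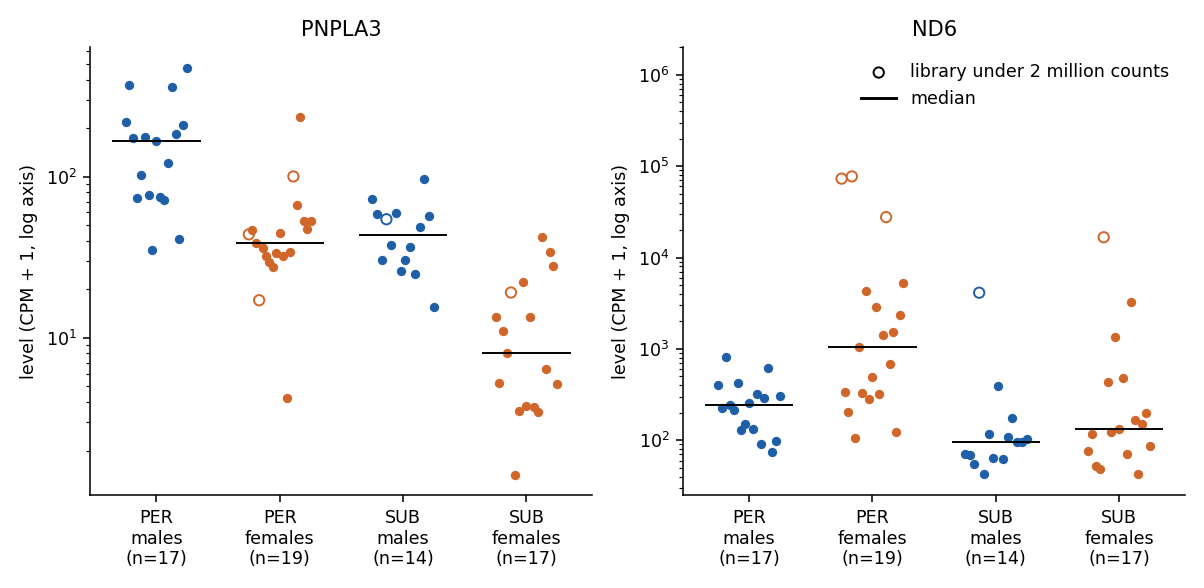
Levels of PNPLA3 (left) and ND6 (right) as CPM + 1 on a log axis in each PER and SUB library by sex, with a line at the median and open circles for libraries under 2000000 counts. PNPLA3 has medians of 167 CPM in males and 37.9 CPM in females in PER, and the 4 highest values of ND6 are open circles.

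Among members without a symbol, ENSOARG00000007908 and ENSOARG00000007889 had the smallest p-values in both depots, and both were lower in males. ENSOARG00000007908 was at 0 to 36.4 CPM in males (median 1.3) and 7.98 to 241 CPM in females (median 25.1) in PER, with a log2 fold change of -3.67 (adjusted p = 2.9e-06, edgeR). In SUB it was at 0.175 to 10.7 CPM in males (median 0.439) and 0.515 to 94.7 CPM in females (median 4.72), with a log2 fold change of -3.77 (adjusted p = 7.5e-06, edgeR). ENSOARG00000007889 was at 0.678 to 19.8 CPM in males (median 4.23) and 3.25 to 70.3 CPM in females (median 30.01) in PER. Its log2 fold change was -2.27 in PER (adjusted p = 4.5e-05, edgeR) and -3.70 in SUB (adjusted p = 1.3e-05, edgeR).

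Of the members higher in males, ENSOARG00000004226 (1.76, adjusted p = 7.3e-05, edgeR) and ENSOARG00000005056 (1.15, adjusted p = 0.00015, edgeR) led in PER. ENSOARG00000010047 led in SUB, at 4.55 to 20.4 CPM in males (median 12.8) and 0.549 to 16.6 CPM in females (median 3.87), with a log2 fold change of 1.70 (adjusted p = 7.8e-05, edgeR). The member of highest rank, ENSOARG00000010057, was also higher in males, by 3.00 in SUB (adjusted p = 0.0028, edgeR) and by 1.07 in PER (adjusted p = 0.0011, edgeR). In SUB it was at 4.72 to 90.4 CPM in males (median 40) and at 0.723 to 158 CPM in females (median 3.76), and the effect in PER minus that in SUB was -2.02 (adjusted p = 0.20, edgeR). Without the shallow libraries that difference was -2.30 and was called (adjusted p = 0.045, edgeR).

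**Figure D5:**
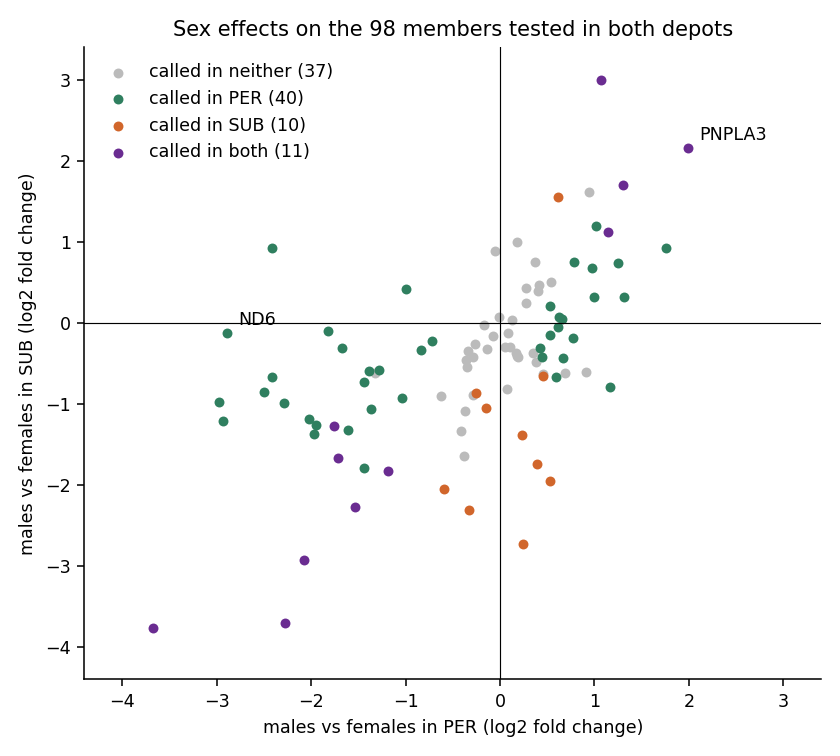
Log2 fold change of males vs females in PER (x axis) and SUB (y axis) for the 98 members tested in both depots, coloured by where the adjusted p of edgeR was under 0.05. PNPLA3 is among the 11 members called in both, which all lie in the quadrants of equal sign, and 40 were called in PER alone, 10 in SUB alone and 37 in neither.

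The sex effect was called as different between depots in 2 of the 100 members, both more positive in PER, beside 29 of all 23294 genes (0.124%, and 0.0773% more positive in PER). It was tested with edgeR across all libraries. ENSOARG00000015186 was at 178 to 559 CPM in males (median 296) and 27.4 to 435 CPM in females (median 170) in PER, and at 7.60 to 60.1 CPM in males (median 30.9) and 14.3 to 105 CPM in females (median 52.9) in SUB. Its sex effect was 1.16 in PER and -0.79 in SUB, a difference of 1.90 with an SE of 0.40 (adjusted p = 0.022, edgeR). ENSOARG00000000950 was at 84.3 to 478 CPM in males (median 211) and 82.2 to 603 CPM in females (median 285) in PER, and at 11.8 to 130 CPM in males (median 31.6) and 28.5 to 446 CPM in females (median 221) in SUB. Its sex effect was -0.33 in PER and -2.30 in SUB, a difference of 1.93 with an SE of 0.43 (adjusted p = 0.031, edgeR).

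Within a depot, the sex effect of ENSOARG00000015186 was called in PER and that of ENSOARG00000000950 in SUB. Without the shallow libraries both differences were no longer called (1.68, adjusted p = 0.058, and 1.63, adjusted p = 0.090, edgeR). With the sheep as a replicate block the first was called (1.93, adjusted p = 0.040, edgeR) and the second was not (2.14, adjusted p = 0.078, edgeR). Other members were called in these models, and are named after their values were seen. Without the shallow libraries 2 were called, both more negative in PER, beside 0.218% of all genes, namely ENSOARG00000010057 and ENSOARG00000008389 (-3.63, adjusted p = 0.047, edgeR). With the block 3 were called, beside 0.159% of all genes, the others being ENSOARG00000008389 (-3.26, adjusted p = 0.029, edgeR) and ENSOARG00000005894 (2.90, adjusted p = 0.021, edgeR). In the model of all libraries the difference was -3.42 for ENSOARG00000008389 (adjusted p = 0.070, edgeR) and 2.90 for ENSOARG00000005894 (adjusted p = 0.21, edgeR). Neither the members called nor their direction thus stayed the same over these models.

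Sex also moved with the reads in no gene. In PER their share was 78.5% ± 10.02 (SD) in the 19 females and 69.3% ± 4.64 (SD) in the 17 males, and the mean level of the members was 5.15 ± 0.50 and 4.70 ± 0.25. In SUB the share was 67.0% ± 11.6 (SD) in the 17 females and 62.9% ± 11.3 (SD) in the 14 males, and the mean level 3.59 ± 0.69 and 3.18 ± 0.52. The 29 members called lower in males in PER had a median correlation of 0.51 with the share, the 22 called higher one of -0.19, and the 49 others one of 0.17. Means of diet group and sex were not removed before these correlations. As the share differed between the sexes, members chosen for a sex difference would lean this way from the choice alone. The split is thus no separate evidence.

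With the share as a covariate, 37 members were called in PER, beside 7.18% of all genes, and 30 of 98 in SUB, beside 7.51%. Of the 51 in PER, 29 remained called in the same direction, and of the 21 in SUB all 21 did. PNPLA3 remained called in both, at 1.66 in PER and 2.13 in SUB. Without the shallow libraries 44 of the 51 and all 21 remained. The part of the share in the sex differences of the other members was not tested further.

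Co-variation was examined after the means of diet group and sex were removed from log2(CPM+1). Between pairs of members the median Pearson correlation was 0.13 over the 36 PER libraries, beside 0.05 for all genes of at least 5 CPM, and 0.31 over the 31 SUB libraries, beside 0.04. Correlations over 0.5 made up 16.9% of the pairs of members in PER and 33.8% in SUB, beside 13.3% and 19.6% among all genes. The first principal component of the members held 33.2% of their variance in PER and 45.1% in SUB. In the libraries of at least 2000000 counts the medians were 0.13 in PER and 0.12 in SUB, beside 0.03 and 0.04 for all genes. After regressing out the share of reads in no gene they were 0.04 and 0.13, beside 0.06 and 0.06. Correlations over 0.5 then made up 7.68% of member pairs in PER and 11.7% in SUB, beside 10.4% and 16.6% among all genes. Without the shallow libraries they made up 10.7% and 14.3%, beside 7.87% and 16.5%.

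Scaling also changed this comparison. With TMM-scaled CPM the median over the members was 0.04 in PER and 0.13 in SUB, below the 0.29 and 0.23 of all genes. With plain CPM it was above that of all genes before the share was removed. Whether members moved together more than other genes thus depended on the scaling, the measure, the libraries and the share of reads in no gene. The correlations are descriptions of libraries that share a denominator.

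In the 33 PER and 29 SUB libraries of at least 2000000 counts, 9 members had a correlation over 0.7 with ND6 in PER, the highest being 0.97, 0.94 and 0.94, and 11 did in SUB, the highest being 0.91, 0.87 and 0.86. The count over all genes is not given here. Before group and sex means were removed, ND6 itself had a correlation of 0.86 (PER) and 0.82 (SUB) with the share of reads in no gene. Its closest member in both depots, ENSOARG00000000032, had 0.85 and 0.88. The part of the share was not tested. Around PNPLA3, 1 member did in PER (0.73) and 0 in SUB, where the highest was 0.48. PNPLA3 and ND6 themselves had a correlation of 0.25 in PER and 0.01 in SUB.

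Across the 26 sheep, the level of a member in PER had a median correlation of 0.19 with its level in SUB, beside 0.15 for all genes, and 13 members were over 0.5, beside 11.3% of all genes. The correlation was 0.56 for PNPLA3 and 0.04 for ND6.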

How the data were processed

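RNA of PER and SUB was depleted of ribosomal RNA, made into libraries with a directional kit and sequenced in pairs. Per the labels and the study's methods, the authors trimmed reads with Trimmomatic 0.39, removed ribosomal sequences with BWA 0.7.17-r1188, aligned to Oar_v3.1 with STAR 2.7.3a and counted with HTSeq 0.11.8. The strand setting is not given in the sources used here. The deposited values are raw counts per gene as the authors obtained them, without normalization. Reads in no gene and other unassigned classes were kept out of library sizes.

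Samples were grouped by the labels, and the sheep number in the titles pairs PER with SUB of 1 animal. Deviations from the group means had a median correlation of 0.12 over the 31 pairs and exceeded 0.1 in 17. The members and lists were chosen with earlier results of these data known. Members came from log2(CPM+1), with a pseudocount of 1, in pairs with at least 2000000 gene counts per library.

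Tests were edgeR 4.0.16 quasi-likelihood fits in R 4.3.3 across all genes that reached 1 CPM in 4 or more libraries, with TMM normalization and Benjamini-Hochberg adjustment (threshold 0.05). Per depot the model held sex, postnatal and prenatal nutrition and their pairwise interactions, and contrasts were averaged with equal weights. Depot differences were tested in a fit of all libraries, and the unused libraries with depot alone. PreNxsex was tested on both coefficients.

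Alternatives were DESeq2 1.42.0 with averaged and with reference-level contrasts, its size factors in edgeR, no filter, libraries of at least 2000000 counts, a covariate for the share of reads in no gene (among reads in a gene or in none), each library left out, and the sheep as a replicate block. The legacy quasi-likelihood fit and the paired difference at an equal share were chosen after seeing the data. The fits were also run on simulated counts with known changes, and the outcome is not given here. Those counts had a single dispersion, no pairing within sheep and no effect of reads in no gene. Members were named if they had a symbol, were first or second in rank or lay at the edge of the list, or had the smallest p-values in a contrast, with at most 2 identifiers in each direction. At the lowest depth 1 CPM is under 1 count. Counting error was not computed for single libraries. Sequences and coordinates of the members are not analysed here.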

Additional observations from a re-analysis of the deposited data

Results flagged for a closer look

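Within the diet groups, 3 values from 2 libraries lay far from the rest of their group. The mean level of the members, PNPLA3 and ND6 were examined in 12 sets of libraries, which makes 36 groups that are not independent. Chance marks about 1 in 20 groups. The SUB library of a HIGH-HCHF female had a mean member level of 5.98 and an ND6 level of 14.0 on the log2(CPM+1) scale. The PER library of a NORM-HCHF female had an ND6 level of 16.2. Both libraries had fewer than 2000000 gene counts, and neither entered the choice of members.

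The sex effect differed between the depots in 2 members, by a test of the difference itself in edgeR across all libraries. For ENSOARG00000015186 the effect in PER minus that in SUB was 1.90, and for ENSOARG00000000950 it was 1.93 on the log2 scale. Neither was called without the shallow libraries (adjusted p = 0.058 and 0.090, edgeR), where 2 other members were called with a more negative effect in PER. Of the calls of ENSOARG00000015186 and ENSOARG00000000950, 0 were kept in all of 4 other models, which were those with the size factors of DESeq2, with no filter, without the shallow libraries and with the sheep as a replicate block.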

How the results depend on the processing

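Leaving out 1 pair at a time, 90 to 98 of the 100 members remained in the list. Of the other rules for choosing 100 genes, a mean of at least 20 CPM shared 57, the same sign in every pair kept 21, and the difference at an equal share of reads in no gene shared 59. The others shared 68 to 96.

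With DESeq2 and averaged contrasts, the 0 calls for diet became 1 for HCHF vs CONV (0.129% of all genes) and 11 for PreNxsex (12%) in PER. In SUB they became 19 for LOW vs NORM (6.49%) and 2 for LOW-HCHF vs NORM-CONV (0.169%). With DESeq2 at the reference levels, which tests another contrast, PER had 12 calls for LOW vs HIGH (15.9% of all genes), 8 for LOW vs NORM (8.68%), 13 for HCHF vs CONV (9.25%), 2 for HIGH-HCHF vs NORM-CONV (2.04%) and 17 for sex (6.79%), and SUB had 5 for sex (0.657%). There, ND6 turned from -0.13 to 6.26 for sex in SUB. Libraries of at least 2000000 counts gave 4 calls for PreNxsex in PER (0.921% of all genes) and 36 for sex in SUB (21.2%). In the unused libraries they gave 14 (0.291% higher in PER). There the replicate block gave 0, size factors 2 (0.275% in either direction) and DESeq2 4 (0.32%). The replicate block changed no other count of calls by over 1.5 times or to or from 0.

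Leaving out 1 library gave 47 (beside 34.2% of all genes) to 56 (46.7%) calls for sex in PER. In SUB it gave 11 (1.92%) to 28 (18.9%). PreNxsex in PER had 0 to 10 (9.85%) and LOW vs NORM in SUB 0 to 14 (1.77%). The unused libraries had 0 to 7 (0.0536% higher in PER). HIGH-HCHF vs NORM-CONV in PER had 0 to 1 (0.00479%), and so had HIGH vs NORM (0.078%) and LOW-HCHF vs NORM-CONV (0.042%) in SUB. Of the 51 and 21 sex calls, 43 and 9 were kept without any 1 library. The causes were not tested. The 5 shallow libraries and the single NORM-CONV male in SUB limit these comparisons, and without gene names no pathway could be described.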
